A study of Mus musculus with 4 samples.

Results

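The genes described here encode the phototransduction cascade, the outer segment and the transcription factors of rod photoreceptors. The genes were listed by name, for their role in rods, with earlier results of these data known. The list holds 38 gene symbols, and all 38 are among the 24322 symbols of the expression files. They were split by role into 9 genes of light activation, 10 genes of recovery and calcium feedback, 15 genes of outer segment structure, transport, retinoid handling, matrix and synapse, and 4 genes of transcription. RNA was measured in mTFP-positive cells sorted from the retinas of 4 mice, with 1 library per mouse. The 2 control mice, 7984 and 3911, were Raxflox/WT, and the 2 *Rax* iCKO mice, 7983 and 3914, were Raxflox/flox. Every mouse also carried Rlbp1-CreERT2 and R26-CAG-LoxP-mTFP1, received tamoxifen at P4 and was analyzed at P14. The strain is 129S6 in the labels, and the study's methods describe backcrosses to 129 Sv/Ev. The study used mice of both sexes, and the labels do not give the sex of these 4. CreERT2 is driven by a promoter fragment of *Rlbp1*, a gene of Müller glial cells, so the floxed allele is deleted and mTFP1 switched on in the cells where that fragment is active, and the controls keep 1 intact *Rax* allele.

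In rods, light activates the visual pigment, which switches on the G protein transducin. Transducin releases the phosphodiesterase PDE6 from its inhibitory subunit, cyclic GMP falls, and cyclic nucleotide-gated channels in the outer segment membrane close. Arrestin, the pigment kinase, the RGS9 complex and calcium-sensing proteins then end the response, and guanylate cyclases refill the cyclic GMP. Most of these proteins work in the outer segment, whose stacked membrane discs are renewed throughout life, and their genes are controlled by CRX, NRL and NR2E3. Müller glial cells are not photoreceptors, and their processes surround the rod cell bodies. The question here is how much of this RNA was in the sorted cells and whether its level differed between control and *Rax* iCKO. In bulk RNA, fewer rods among the sorted cells and less rod RNA per cell cannot be told apart.

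CRX and OTX2 bind sites with the letters TAATCC. These letters were searched on both strands of the RefSeq promoter windows of GRCm38.p6, each 250 bases before to 50 bases after a transcription start. Windows were found for 29 of the 38 genes, 32 windows in all, and 13 of the 32 (40.6%) held TAATCC, against 7.1% of all 32851 windows and 5.8% of the 12046 windows of genes tested below. The 4 sequences below are the 250 bases before the start, 5′ to 3′ on the strand of the gene, with TAATCC or its complement GGATTA in capitals. They were chosen after the values were seen, to show the site in genes with unlike values in the 2 genotypes, none of which passed the test given below. *Sag* (chr1:87803430-87803679, plus strand) and *Cnga1* (chr5:72642753-72643002, minus strand) had both *Rax* iCKO libraries under both controls, *Gngt1* (chr6:3993758-3994007, plus strand) overlapped between the groups, and *Crx* itself (chr7:15879956-15880205, minus strand) had both above.

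Sag: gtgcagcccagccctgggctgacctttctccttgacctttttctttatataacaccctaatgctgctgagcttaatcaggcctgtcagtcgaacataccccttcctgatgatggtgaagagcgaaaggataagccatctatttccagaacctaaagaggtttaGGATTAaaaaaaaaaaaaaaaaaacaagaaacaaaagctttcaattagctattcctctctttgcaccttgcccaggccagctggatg
Cnga1: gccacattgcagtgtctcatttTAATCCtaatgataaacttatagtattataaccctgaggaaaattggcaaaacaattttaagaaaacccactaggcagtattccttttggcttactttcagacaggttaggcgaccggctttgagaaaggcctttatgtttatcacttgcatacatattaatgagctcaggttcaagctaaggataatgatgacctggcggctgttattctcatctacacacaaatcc
Gngt1: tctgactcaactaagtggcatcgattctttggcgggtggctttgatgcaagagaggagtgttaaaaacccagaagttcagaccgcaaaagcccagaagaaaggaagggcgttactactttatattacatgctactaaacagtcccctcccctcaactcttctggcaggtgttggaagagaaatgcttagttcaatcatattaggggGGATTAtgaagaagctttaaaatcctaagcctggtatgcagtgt
Crx: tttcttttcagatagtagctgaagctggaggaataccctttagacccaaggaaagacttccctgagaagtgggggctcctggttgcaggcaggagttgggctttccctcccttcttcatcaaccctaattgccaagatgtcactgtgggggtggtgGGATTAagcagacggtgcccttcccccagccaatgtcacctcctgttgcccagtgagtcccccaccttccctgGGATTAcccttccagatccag

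A match is a run of letters and no measured binding site. TAATCC and TAATT share their first letters, but 1 stretch of DNA cannot match both from the same base on the same strand. TAATT, the letters the study searched as the Rax site, and TGCTGA, letters of the NRL site, were in 11 and 8 of the members' windows, in 27.0% and 19.5% of all windows, and in 16.3% and 15.3% of the windows of tested genes. The 12 tested members with TAATCC had a median log2 fold change of -0.19 (range -0.87 to 0.24), and the 16 without it had a median of -0.36 (range -0.71 to 0.02). No window was matched for *Gnat1*, *Pde6a*, *Pde6g*, *Rcvrn*, *Guca1b*, *Rgs9bp*, *Reep6*, *Rp1* and *Cplx4*, so both medians leave them out. Among them, *Gnat1*, *Pde6g*, *Rcvrn* and *Guca1b* were lower in *Rax* iCKO at an unadjusted p under 0.05 in the test given below. *Rgs9bp* had the highest log2 fold change of the list, 0.76. The difference between the medians was not tested.

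The values are FPKM, the fragments on a gene scaled to its exon length and to the depth of the library. Depth, estimated from the steps of single reads in low values, was about 12710000 mapped reads in control mouse 7984 and between 9260000 and 9420000 in the other 3 libraries. *Rax* was at 189 and 181 FPKM in the controls and at 111 and 98.4 FPKM in *Rax* iCKO (-0.82 ± 0.21 as log2 fold change ± standard error; exact permutation test, two-sided, p = 0.333, the smallest that 2 mice against 2 can give). The Müller glial markers were abundant, with *Apoe* between 3901 and 5041 FPKM, *Car2* between 1818 and 2969 FPKM and *Rlbp1* between 1292 and 2616 FPKM. The bipolar cell markers were abundant too, with *Pcp2* between 2071 and 6515 FPKM, *Gng13* between 1337 and 2742 FPKM and *Cabp5* between 390 and 812 FPKM, so RNA of bipolar marker genes was present in the sorted cells. Mice 7983 and 7984, and mice 3911 and 3914, lie close in number with 1 mouse of each genotype, and the libraries were most alike within these runs of numbers (correlation of log2(FPKM + 1) across genes 0.970 in both, against 0.947 to 0.955 for the other 4 pairs). The labels do not say what the runs are.

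RNA of all 38 rod genes was present in all 4 libraries. Summed over the 38 genes it came to 3590 FPKM in control mouse 7984, 3862 FPKM in control mouse 3911, 2903 FPKM in *Rax* iCKO mouse 7983 and 2822 FPKM in *Rax* iCKO mouse 3914. Both *Rax* iCKO sums lay under both control sums, and the ratio of the means was 0.768. The same ratio was 0.909 for the sum over all genes tested below. By role it was 0.661 for activation and 0.671 for recovery, with the groups apart. It was 0.958 for the outer segment set and 0.956 for transcription, where the sums overlapped between the groups. As a share of all FPKM in a library, the sum over the 38 genes was 0.678% and 0.627% in control against 0.589% and 0.514% in *Rax* iCKO. The level ranged widely between genes, from a mean of 0.784 FPKM for the cyclase gene *Gucy2f* to 586 FPKM for *Unc119*, and 9 genes were above 100 FPKM on average. These were *Unc119*, *Sag*, *Pde6g*, *Gngt1*, *Gnat1*, *Gnb1*, *Rom1*, *Pdc* and *Rcvrn*, of which *Gnb1*, a G protein beta subunit, is used by most cell types.

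**Figure D1:**
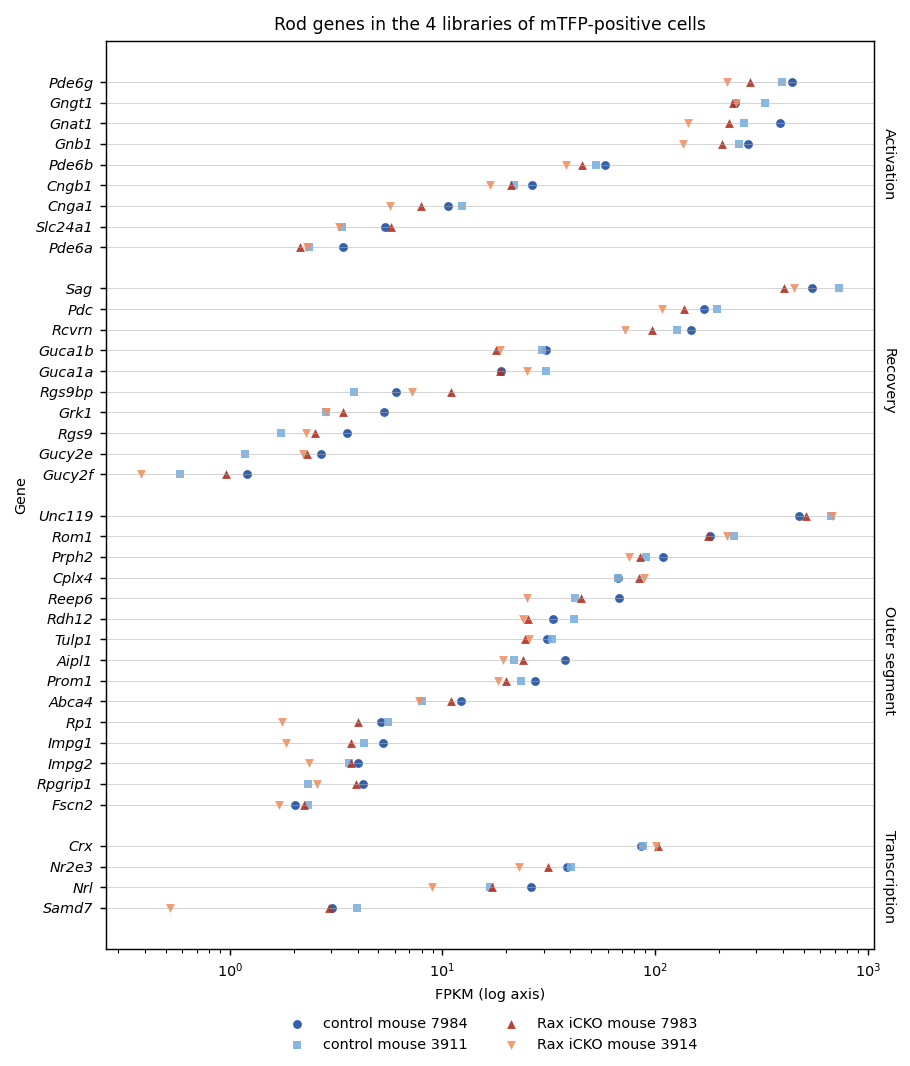
FPKM of the 38 rod genes on a log axis, grouped by role and ordered by mean level, with 1 symbol per library (circles and squares for control mice 7984 and 3911, upward and downward triangles for *Rax* iCKO mice 7983 and 3914). Both triangles lie to the left of both control symbols for 19 genes and to the right of both for *Rgs9bp*, *Cplx4* and *Crx*.

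No rod gene passed the test across all genes. The genotypes were compared by limma, as log2(FPKM + 1), in the 12363 genes whose mean reached 1 FPKM, a filter that 37 of the 38 rod genes passed, *Gucy2f* being the exception. At a Benjamini-Hochberg adjusted p under 0.05, 0 of the 37 were called, against 3 of all 12363 genes (0.0243%), and the lowest adjusted p among the 37 was 0.9999. At an unadjusted p under 0.05, 7 of the 37 (18.9%) were lower in *Rax* iCKO, against 1.6% of all genes, and 0 were higher, against 1.26%. The 7 were *Gnat1*, *Pde6g*, *Cnga1*, *Rcvrn*, *Pdc*, *Guca1b* and *Rdh12*, with unadjusted p between 0.0140 and 0.0491. Over the 37 genes the median log2 fold change was -0.34, over all genes tested it was -0.0044, and 30 of the 37 (81.1%) were lower, against 50.8% of all genes. The sign of 10 of the 37 turned when some single mouse was left out, and in each of the 10 the groups overlapped.

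In 19 of the 37 genes (51.4%) both *Rax* iCKO libraries lay under both controls, against 14.1% of all genes tested, and in 3 genes (8.11%) both lay above, against 15.4%. The other 15 overlapped. Within the runs of mouse numbers, the median difference over the 37 genes was -0.33 between *Rax* iCKO mouse 7983 and control mouse 7984 and -0.37 between *Rax* iCKO mouse 3914 and control mouse 3911, on the log2(FPKM + 1) scale. By the same median, each *Rax* iCKO library was lower than each control, with medians of -0.59 to -0.21, while control mouse 3911 stood at -0.14 from control mouse 7984 and *Rax* iCKO mouse 3914 at -0.30 from *Rax* iCKO mouse 7983. Of the 37 genes, 27 (73%) were lower in *Rax* iCKO within both runs, against 31.7% of all genes, 4 were higher within both and 6 went in opposite directions. *Rax* iCKO mouse 3914 was the lowest library for 22 of the 37 genes, and control mouse 7984 the highest for 20. Without mouse 3914, 0 of the 37 had an unadjusted p under 0.05 in the lower direction, where 0.574% of all genes had one, and the median log2 fold change was -0.26. Without control mouse 7984, 1 of the 37 had such a p, beside 1.99% of all genes.

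**Figure D2:**
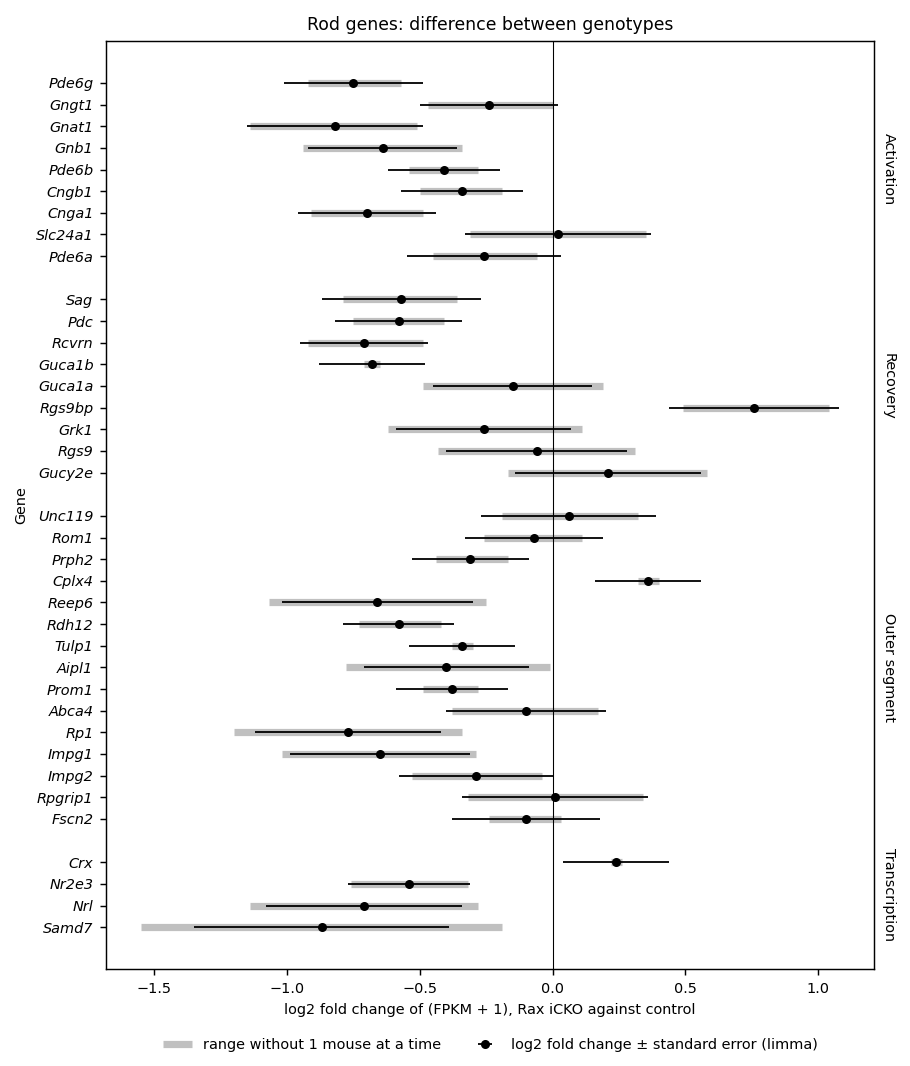
Log2 fold change of FPKM + 1 in *Rax* iCKO against control for the 37 rod genes tested, with limma standard errors as thin bars and, as grey bands, the range when each of the 4 mice is left out in turn. Of the 37 points, 30 lie under 0, and the grey band of *Guca1b* is narrow, from -0.71 to -0.65, whereas that of *Samd7* runs from -1.55 to -0.19.

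Among the activation genes, 8 of 9 were lower in *Rax* iCKO, against 50.8% of all genes. At an unadjusted p under 0.05, 3 of the 9 were lower, against 1.6% of all genes. The median log2 fold change was -0.41 (-0.64 over those with a mean of at least 5 FPKM). *Pde6g* encodes the inhibitory gamma subunit of PDE6. It was at 439 FPKM in control mouse 7984 and 395 FPKM in control mouse 3911, against 280 FPKM in *Rax* iCKO mouse 7983 and 219 FPKM in *Rax* iCKO mouse 3914. Values of the other genes follow in the same order of mice. The groups did not overlap, and the control mean of 417 ± 31.1 stood against 250 ± 43.2 (SD, n = 2 each) in *Rax* iCKO, with a ratio of 0.599. Its log2 fold change was -0.75 with a standard error of 0.26. *Gnat1*, the alpha subunit of rod transducin, was at 386 and 262 FPKM in control against 224 and 143 FPKM in *Rax* iCKO, a ratio of means of 0.567. Both *Rax* iCKO libraries lay under both controls, with *Rax* iCKO mouse 3914 the lowest, and the log2 fold change of -0.82 (standard error 0.33) lay between -1.14 and -0.51 when single mice were left out.

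*Gnb1* and *Gngt1* encode the other subunits of rod transducin. *Gnb1* was at 274 and 248 FPKM in control against 206 and 136 FPKM in *Rax* iCKO, without overlap. *Gngt1*, the gamma subunit, was at 237 and 329 FPKM in control against 234 and 240 FPKM in *Rax* iCKO. For *Gngt1* control mouse 7984 lay between the *Rax* iCKO libraries, and the 95% interval of its log2 difference ran from -0.88 to 0.41. The difference between these subunits was not tested.

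The catalytic PDE6 subunits were at very different levels. *Pde6b* was at 58.4 and 52.9 FPKM in control against 45.6 and 38.03 FPKM in *Rax* iCKO, a ratio of 0.751. *Pde6a* was at only 3.42 and 2.37 FPKM in control and at 2.14 and 2.31 FPKM in *Rax* iCKO. The groups did not overlap in either, by a narrow margin in *Pde6a*, where control mouse 3911 and *Rax* iCKO mouse 3914 were nearly equal. The channel subunits were both lower in *Rax* iCKO. *Cnga1* was at 10.7 and 12.4 FPKM in control against 7.93 and 5.67 FPKM in *Rax* iCKO (-0.70 ± 0.26 as log2 fold change ± standard error), and *Cngb1* was at 26.4 and 21.8 FPKM in control against 21.0 and 16.7 FPKM in *Rax* iCKO. *Slc24a1*, the rod exchanger that removes calcium, followed the run of mouse numbers and not the genotype. It was at 5.39 and 5.72 FPKM in mice 7984 and 7983 and at 3.37 and 3.27 FPKM in mice 3911 and 3914.

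Of the 9 recovery genes tested, 7 were lower in *Rax* iCKO, against 50.8% of all genes. Of these, 3 had an unadjusted p under 0.05, against 1.6% of all genes. The median log2 fold change was -0.26. That median was -0.49 without control mouse 7984, -0.43 without control mouse 3911 and -0.58 over the genes with a mean of at least 5 FPKM. *Sag*, which encodes rod arrestin and was the most abundant gene of the cascade, was at 548 and 737 FPKM in control against 403 and 453 FPKM in *Rax* iCKO. The gap between the groups, from 453 to 548, was smaller than the spread of the controls (643 ± 133, SD, n = 2). *Rcvrn*, the calcium sensor recoverin that restrains the pigment kinase, was at 147 and 128 FPKM in control against 97.2 and 71.9 FPKM in *Rax* iCKO, a ratio of 0.615. *Pdc*, which encodes phosducin, a binding partner of transducin beta and gamma subunits, was at 170 and 196 FPKM in control against 136 and 108 FPKM in *Rax* iCKO. Neither overlapped between the groups.

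*Guca1a* and *Guca1b* encode the calcium-sensing activators of guanylate cyclase. *Guca1b* was at 30.7 and 29.3 FPKM in control against 17.97 and 18.7 FPKM in *Rax* iCKO, and its means of 30.0 ± 0.971 and 18.3 ± 0.480 (SD, n = 2 each) stood farther apart than either spread. It had the smallest unadjusted limma p of the 37 genes, 0.0140, and a log2 fold change of -0.68 (standard error 0.20). *Guca1b* lies at chr17:47384694-47392967 (GRCm38.p6). In an exact permutation test on its FPKM, two-sided, p was 0.333. *Guca1a* was at 18.9 and 30.8 FPKM in control against 18.8 and 25.1 FPKM in *Rax* iCKO, and was higher in mice 3911 and 3914 than in mice 7984 and 7983. The cyclase genes were low. *Gucy2e* was at 2.68 and 1.18 FPKM in control against 2.32 and 2.22 FPKM in *Rax* iCKO, and *Gucy2f* was at 1.21 and 0.582 FPKM in control against 0.961 and 0.383 FPKM in *Rax* iCKO. Both overlapped between the groups.

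*Rgs9bp* went the other way from most of the list. Its protein anchors RGS9, which speeds the shut-off of transducin, to the disc membrane, and it is also known in ON bipolar cells. It was at 6.05 and 3.83 FPKM in control against 10.9 and 7.20 FPKM in *Rax* iCKO, a ratio of 1.84, the highest of the 38 genes. Both *Rax* iCKO libraries lay above both controls, the difference was 0.76 and 0.77 within the 2 runs of mouse numbers, and the 95% interval of the log2 fold change ran from -0.02 to 1.55. *Rgs9* itself was at 3.57 and 1.74 FPKM in control against 2.51 and 2.28 FPKM in *Rax* iCKO. *Grk1*, the pigment kinase, was at 5.32 and 2.83 FPKM in control against 3.43 and 2.83 FPKM in *Rax* iCKO. For *Rgs9* and *Grk1* the groups overlapped.

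Of the 15 outer segment genes 12 were lower in *Rax* iCKO, against 50.8% of all genes, and the median log2 fold change was -0.31. *Rdh12* was the one with an unadjusted p under 0.05, and 1.6% of all genes were lower at that p. *Rdh12*, a retinol dehydrogenase of the inner segment, was at 33.3 and 41.5 FPKM in control against 25.2 and 23.96 FPKM in *Rax* iCKO (-0.58 ± 0.21 as log2 fold change ± standard error). *Prph2* and *Rom1* encode the tetraspanins that form the disc rim. *Prph2* was at 109 and 90.3 FPKM in control against 85.3 and 75.2 FPKM in *Rax* iCKO, whereas *Rom1* was at 182 and 236 FPKM in control against 178 and 217 FPKM in *Rax* iCKO. The groups were apart for *Prph2* and overlapped for *Rom1*, and the 95% interval of the log2 difference of *Rom1* ran from -0.70 to 0.55. *Tulp1*, which acts in protein transport to the outer segment, was at 31.1 and 32.8 FPKM in control against 24.6 and 25.5 FPKM in *Rax* iCKO. *Prom1*, a protein of nascent discs, was at 27.2 and 23.4 FPKM in control against 19.95 and 18.3 FPKM in *Rax* iCKO. Neither gene overlapped between the groups, and for *Tulp1* the gap between them was larger than the range within either group.

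*Rp1*, a microtubule protein of the outer segment axoneme, and *Impg1*, a proteoglycan of the matrix between photoreceptors, were low and rested largely on 1 mouse. *Rp1* was at 5.17 and 5.54 FPKM in control against 4.03 and 1.76 FPKM in *Rax* iCKO, and *Impg1* was at 5.26 and 4.29 FPKM in control against 3.72 and 1.84 FPKM in *Rax* iCKO. Without *Rax* iCKO mouse 3914 the log2 fold change moved from -0.77 to -0.34 for *Rp1* and from -0.65 to -0.29 for *Impg1*. *Impg2*, a relative of *Impg1*, was at 4.03 and 3.66 FPKM in control against 3.71 and 2.35 FPKM in *Rax* iCKO. *Reep6*, an endoplasmic reticulum protein of rods, was at 67.5 and 42.3 FPKM in control against 44.9 and 25.03 FPKM in *Rax* iCKO. Its groups overlapped, but it was lower in *Rax* iCKO within both runs, by -0.58 and -0.73 on the log2 scale.

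For 5 of the 6 other genes of the set the groups overlapped. *Aipl1*, a chaperone of PDE6, was at 37.6 FPKM in control mouse 7984 and between 19.3 and 23.9 FPKM in the other 3 libraries. *Abca4*, a transporter of retinoids in the disc, was between 7.75 and 12.3 FPKM, *Rpgrip1*, of the connecting cilium, between 2.32 and 4.23 FPKM, and *Fscn2*, an actin-bundling protein, between 1.70 and 2.34 FPKM. *Unc119*, a chaperone for lipid-modified proteins such as transducin, was at 475 and 674 FPKM in control against 514 and 682 FPKM in *Rax* iCKO, and was thus higher in mice 3911 and 3914 in both genotypes. *Cplx4*, a complexin of photoreceptor ribbon synapses, was higher in *Rax* iCKO. It was at 67.0 and 67.2 FPKM in control against 84.1 and 88.8 FPKM in *Rax* iCKO, with means of 67.1 ± 0.179 and 86.5 ± 3.33 (SD, n = 2 each) and a log2 fold change of 0.36 (standard error 0.20, unadjusted p = 0.117 from limma).

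In the transcription set *Crx* was higher in *Rax* iCKO and the other 3 factors were lower, with a median log2 fold change of -0.63 over the 4 genes, and of -0.24 when mouse 3914 was left out or -0.95 when mouse 7983 was left out. *Crx*, a homeobox gene that photoreceptors and bipolar cells use, was at 85.6 and 87.7 FPKM in control against 104 and 101 FPKM in *Rax* iCKO. Both *Rax* iCKO libraries lay above both controls (log2 fold change 0.24, standard error 0.20). *Nr2e3*, the nuclear receptor that represses cone genes in rods, was at 38.5 and 40.3 FPKM in control against 31.3 and 22.9 FPKM in *Rax* iCKO. *Nrl*, the factor that sets rod fate, was at 26.2 and 16.7 FPKM in control against 17.1 and 8.97 FPKM in *Rax* iCKO, with *Rax* iCKO mouse 7983 just above control mouse 3911. *Samd7*, a Polycomb-associated repressor in photoreceptors, was at 3.02 and 3.99 FPKM in control against 2.92 and 0.524 FPKM in *Rax* iCKO. It was the one gene of the list with a ratio of mean FPKM under 0.5 (0.492), against 1.02% of all genes, and 0 had a ratio over 2, against 0.841%. The low mean of *Samd7* came from *Rax* iCKO mouse 3914, since the difference within the other run was -0.04. The count with a ratio under 0.5 was 7 without *Rax* iCKO mouse 7983, 2 without control mouse 3911 and 0 without *Rax* iCKO mouse 3914, and 1 gene had a ratio over 2 without control mouse 7984 or without *Rax* iCKO mouse 3914. Of all genes, 4.82% had a ratio under 0.5 without mouse 7983, and 4.97% a ratio over 2 without mouse 7984.

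**Figure D3:**
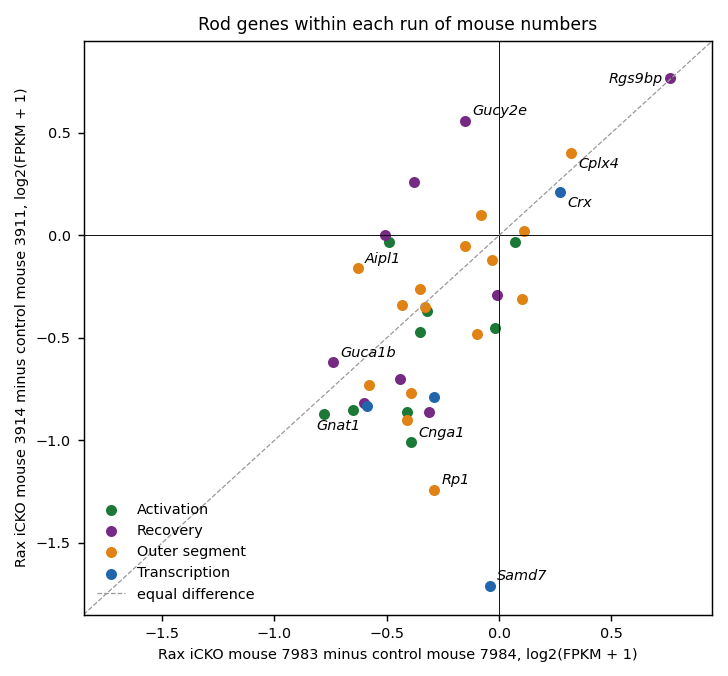
Difference in log2(FPKM + 1) between the *Rax* iCKO and the control mouse within each run of mouse numbers for the 37 rod genes, 7983 minus 7984 on the x axis and 3914 minus 3911 on the y axis, coloured by role. Of the 37 points 27 are negative on both axes, *Rgs9bp*, *Cplx4* and *Crx* lie in the upper right, and *Samd7* is far down at -0.04 and -1.71.

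The members were also set against each other within a library, by taking the median deviation of the 37 genes off every library. This median deviation stood at 0.28 in control mouse 7984, 0.13 in control mouse 3911, -0.05 in *Rax* iCKO mouse 7983 and -0.32 in *Rax* iCKO mouse 3914. After it was taken off, the differences between the genotypes ran from -0.48 for *Samd7* and -0.44 for *Gnat1* to 0.63 for *Crx*, 0.75 for *Cplx4* and 1.15 for *Rgs9bp*. *Gnat1*, *Pde6g*, *Rcvrn*, *Cnga1*, *Guca1b* and *Gnb1* still had both *Rax* iCKO libraries under both controls, as did *Pde6b* with a difference of -0.02. The other 12 of the 19 genes with both *Rax* iCKO libraries under both controls then overlapped between the groups, *Samd7*, *Sag*, *Pdc* and *Rdh12* among them. Besides *Crx*, *Cplx4* and *Rgs9bp*, both *Rax* iCKO libraries then lay above both controls for *Fscn2*, *Rpgrip1*, *Slc24a1* and *Gucy2e*, with differences between 0.28 and 0.60. Taking off the members' own median sets about as many of them above as below, so the 7 under and the 7 above are a description of the order within the list, beside the 14.1% and 15.4% of all genes without centring.

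The marker lists of other cell types were compared in the same way. Of 16 Müller glial markers 15 were lower in *Rax* iCKO, against 50.8% of all genes (median log2 fold change -0.33). In 6 both *Rax* iCKO libraries lay under both controls, against 14.1% of all genes. The summed FPKM of the 16 markers was 19500 and 15050 in control against 13080 and 12970 in *Rax* iCKO. Control mouse 7984 was the highest library for 15 of the 16 markers. Their median deviation was 0.45 in control mouse 7984, -0.07 in control mouse 3911, -0.08 in *Rax* iCKO mouse 7983 and -0.27 in *Rax* iCKO mouse 3914. *Dapl1* was the one at an unadjusted p under 0.05, at 525 and 568 FPKM in control and 292 and 318 FPKM in *Rax* iCKO. Of 9 bipolar cell markers 8 were higher (median 0.31), and none was listed at 0. In 3 both *Rax* iCKO libraries lay above both controls, against 15.4% of all genes. The median difference was 0.52 between mice 7983 and 7984 but 0.09 between mice 3914 and 3911. Within both runs of mouse numbers 5 markers were higher, and 4 went in opposite directions. Control mouse 7984 was the lowest library for 8 of the 9 markers. *Trpm1*, the channel of ON bipolar cells, was the one at an unadjusted p under 0.05, at 178 and 213 FPKM in control and 293 and 327 FPKM in *Rax* iCKO. The summed FPKM of the bipolar markers was 4422 and 11000 in control against 6095 and 9039 in *Rax* iCKO and overlapped. The rod sum was 0.184 and 0.257 of the Müller glial sum in control against 0.222 and 0.218 in *Rax* iCKO, and so overlapped on that scale. The part of either cell type in the rod result was not tested. The amacrine and horizontal cell list summed to at most 9.80 FPKM and the ganglion cell list to at most 13.3 FPKM, with *Pou4f1* listed at 0 in all 4 libraries. Pigment epithelium markers summed to at most 8.17 FPKM. Microglial markers summed to 36.9 and 36.3 FPKM in control and to 66.0 and 8.50 FPKM in *Rax* iCKO.

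**Figure D4:**
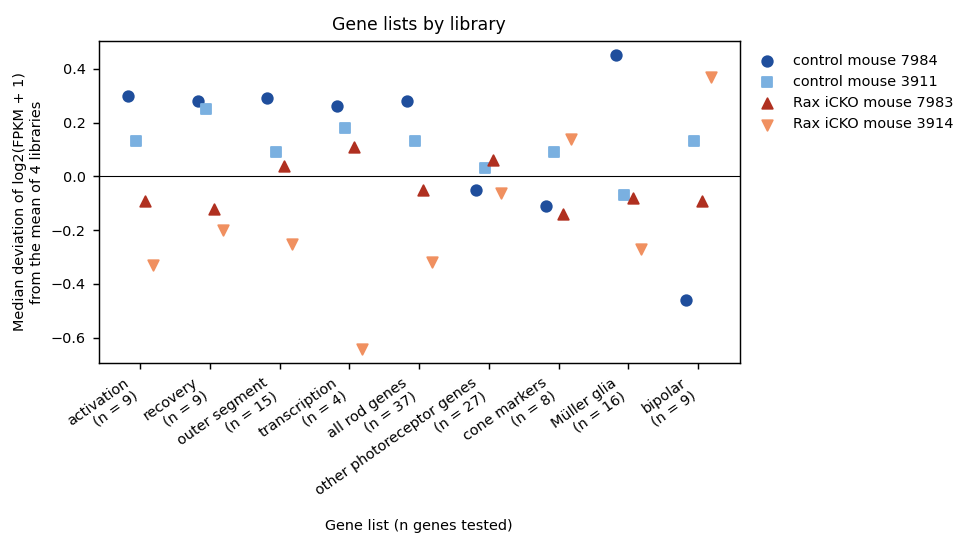
Median deviation of log2(FPKM + 1) from the mean of the 4 libraries for each gene list, with the number of genes tested under its name and 1 symbol per library. The rod lists and the Müller glial list are lowest in *Rax* iCKO mouse 3914, and the bipolar list is lowest in control mouse 7984, at -0.46.

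Of 30 further photoreceptor genes, many of which cones or bipolar cells also use, 27 were tested, 12 were lower and 15 higher, and the median log2 fold change was 0.03. At an unadjusted p under 0.05, 2 of the 27 were lower, against 1.6% of all genes, and 3 were higher, against 1.26%. The lower ones were *Cabp4*, a calcium-binding protein of the photoreceptor terminal, at 6.88 and 6.82 FPKM in control and 3.78 and 3.48 FPKM in *Rax* iCKO, and the disc gene *Prcd*, listed as *Gm11744*, at 48.2 and 46.9 FPKM in control and 29.3 and 32.6 FPKM in *Rax* iCKO. The most abundant were *Gnb5*, whose product partners RGS9, between 203 and 320 FPKM, the vesicular glutamate transporter *Slc17a7*, between 157 and 217 FPKM, and the homeobox gene *Otx2*, at 142 and 197 FPKM in control and 210 and 234 FPKM in *Rax* iCKO. The higher ones at that p included the calcium channel subunits *Cacna1f* and *Cacna2d4*. *Cacna1f* was at 17.6 and 11.7 FPKM in control against 32.2 and 28.4 FPKM in *Rax* iCKO, and *Cacna2d4* was at 55.4 and 54.0 FPKM in control against 82.4 and 99.3 FPKM in *Rax* iCKO. None of the 27 had an adjusted p under 0.05. The count of lower genes at an unadjusted p under 0.05 was 1 without control mouse 3911 and 0 without either *Rax* iCKO mouse, and that of higher genes was 1 without *Rax* iCKO mouse 3914 and at most 4 without any other mouse. Of 12 cone markers 8 were tested, their median log2 fold change was -0.05, and 0 had an unadjusted p under 0.05. The most abundant, *Gnb3*, which ON bipolar cells also use, was between 965 and 1713 FPKM. No test was run of the difference between the rod list and these lists.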

How the data were processed

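The labels describe mTFP-positive retinal cells sorted after papain dissociation, with 1 RNA-seq library per mouse, SMART-Seq HT cDNA and Nextera XT libraries. The authors deposited FPKM per gene for each library, from single-end reads aligned to mm10. The submitters' processing notes name TopHat2 2.1.1, Bowtie2 2.2.8, SAMtools 0.1.18 and Cuffdiff 2.2.1. The annotation and the use of strand are not given in the sources used here. Full-length cDNA from few cells is amplified by PCR without molecular identifiers, and FPKM are relative to the mapped reads of a library, so an abundant RNA lowers the values of others.

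FPKM were not rescaled. Depth was estimated from the steps of single reads in 493 low genes with the transcript lengths of the reference annotation, and is approximate. Groups were compared with limma 3.58.1 (R 4.3.3), with a trend in the variance prior, as log2(FPKM + 1). The 12363 genes whose mean reached 1 FPKM entered, and the Benjamini-Hochberg adjustment covered all of them. With the pseudocount of 1, fold changes of low genes come out too small. The exact permutation test (scipy 1.17.1) cannot go below p = 0.333 with 2 mice against 2. Replicates are separate mice.

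The members and lists were chosen with earlier results of these data known. Values in every library were given for genes with an unadjusted p under 0.05, for groups without overlap, for the 3 most abundant genes of each role, for all transcription genes and for pairs of related genes. In the other lists, the 3 most abundant genes and those with an unadjusted p under 0.05 were named, within the cell types compared with the rod genes. The remaining genes without a role in these rules were given by value or range. Promoters and coordinates came from RefSeq on GRCm38.p6. *Prcd* and *Rp2* were matched through their synonyms *Gm11744* and *Rp2h*. Protein sequences were not used here. The values of 1 gene of the other photoreceptor list are not reported here. The alternatives were another pseudocount (0.1), other filters, scaling to equal quantiles or equal medians, a variance prior without the trend, the runs of mouse numbers as a block, and fits without 1 mouse.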

Additional observations from a re-analysis of the deposited data

How the results depend on the processing

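With 2 mice per genotype, no single gene can pass an exact test, and each library left out leaves 1 mouse assumed to vary like the others. The median log2 fold change of the rod genes stayed negative under each alternative, from -0.49 to -0.26. The labels give no pairing of the mice, and with 2 runs of numbers none could be settled from the data. With the replicate block by run of mouse numbers, limma called 3 rod genes lower (*Gnat1*, adjusted p = 0.0222; *Pde6g*, 0.0418; *Rcvrn*, 0.0435) and 71 genes in all, 21 of 37 rod genes were lower and 2 higher at an unadjusted p under 0.05, beside 8.87% and 6.81% of all genes, 5 other photoreceptor genes were lower and 6 higher at that p, and *Rax* passed at a log2 fold change of -0.82 (adjusted p = 0.0222). Quantile normalization left 4 rod genes lower and 2 higher at an unadjusted p under 0.05 (1.54% and 1.76% of all genes), 5 with both *Rax* iCKO libraries above both controls (16% of all genes), and a ratio of summed FPKM of 0.865. Equal medians gave 1 higher at that p (1% of all genes), and a minimum mean of 5 FPKM left 0 with a ratio under 0.5 (0.469%). Leaving out 1 mouse at a time gave 0 to 7 rod genes lower and 0 to 1 higher at an unadjusted p under 0.05, where all genes gave 0.574% to 2.21% and 0.469% to 2.48%. It gave 0 to 7 with a ratio under 0.5 and 0 to 1 with a ratio over 2, where all genes gave 1.42% to 4.82% and 1.31% to 4.97%. The cause of these changes was not tested. The direction of 10 rod genes turned when some single mouse was left out, with log2 fold changes from -0.31 to 0.35 for *Slc24a1*, -0.62 to 0.11 for *Grk1*, -0.49 to 0.19 for *Guca1a*, -0.17 to 0.58 for *Gucy2e*, -0.43 to 0.31 for *Rgs9*, -0.26 to 0.11 for *Rom1*, -0.24 to 0.03 for *Fscn2*, -0.32 to 0.34 for *Rpgrip1*, -0.19 to 0.32 for *Unc119* and -0.38 to 0.17 for *Abca4*. Of these, 3 also turned with quantile normalization, *Slc24a1* to -0.03, *Rom1* to 0.07 and *Rpgrip1* to -0.04, and with equal medians *Slc24a1* stood at -0.00 and *Rpgrip1* at -0.01. The block changed no other call of a rod gene at an adjusted p under 0.05.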
